A study of Mus musculus with 2 samples.

Results

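Mitochondrial ribosomal protein genes, those whose symbol begins with Mrpl (large subunit) or Mrps (small subunit) followed by a number in the platform probe annotation, were compared between 2 pools of mouse back skin keratinocytes. The rule took 76 of the 16593 genes with a probe, 47 of the large and 29 of the small subunit, read by 110 of 25697 probes. Both pools came from mice with a floxed Med1 gene (Med1 encodes a subunit of the Mediator coactivator complex). The control pool (CON, strain given as MED1 fl/fl C57BL6) came from littermates without Cre, and the knockout pool (Med1cKO, strain given as MED1 fl/fl Cre) from mice with Cre under the keratin 14 promoter, which is active in basal cells of the epidermis and follicle. According to the design text, cells from 3 mice of each genotype went into a pool that was sorted for integrin alpha6 on the surface and absence of CD34, and other protocol fields instead describe RNA of whole skin from each mouse. The labels used here give no age. Each pool was read on 1 Illumina bead array, so no difference below has a replicate error, a test or a p-value.

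Mitochondria keep their own ribosome, which translates the few messages of mitochondrial DNA, all of them for core subunits of the respiratory chain and the ATP synthase. Its RNA is made in the mitochondrion, while every protein of its 2 subunits is encoded in the nucleus, made in the cytosol and imported. Some of these proteins descend from bacterial ribosomal proteins and others are found in mitochondria only. Their genes are active in nearly every cell type, and ETS factors such as GABP, NRF1 and YY1 are textbook regulators of nuclear genes for mitochondrial proteins.

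Promoter windows from RefSeq (assembly GRCm38.p6), 300 bases each with 250 before and 50 after the annotated start, matched 67 of the 76 genes. Of 8 motifs searched on both strands, 3 belong to these regulators: CCGGAAG (ETS factors), the palindromic NRF1 motif and AAGATGGC (YY1). At least 1 of the 3 was found for 42 of the 67 genes (62.7%), against 16.4% of 27025 genes with a window and 34.2% of the genes detected on these arrays. Matches of the 3 motifs did not overlap one another in any member's window. Mrpl17, Mrpl49 and Mrpl43 are shown as examples of each motif among the genes with the highest and lowest ratios, with matches in capitals. In the Mrpl46 window the capitals mark the 42 bases that separate the start of Mrps11, read from the other strand, from the start of Mrpl46, so that a large and a small subunit gene begin side by side.
Mrpl17, chr7:105811038-105811337, minus strand: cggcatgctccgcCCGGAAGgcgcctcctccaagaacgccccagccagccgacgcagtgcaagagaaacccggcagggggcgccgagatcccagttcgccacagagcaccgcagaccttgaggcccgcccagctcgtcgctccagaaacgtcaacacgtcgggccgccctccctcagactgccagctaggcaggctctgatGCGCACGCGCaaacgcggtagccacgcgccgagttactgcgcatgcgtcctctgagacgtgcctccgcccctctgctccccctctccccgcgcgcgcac
Mrpl49, chr19:6057706-6058005, minus strand: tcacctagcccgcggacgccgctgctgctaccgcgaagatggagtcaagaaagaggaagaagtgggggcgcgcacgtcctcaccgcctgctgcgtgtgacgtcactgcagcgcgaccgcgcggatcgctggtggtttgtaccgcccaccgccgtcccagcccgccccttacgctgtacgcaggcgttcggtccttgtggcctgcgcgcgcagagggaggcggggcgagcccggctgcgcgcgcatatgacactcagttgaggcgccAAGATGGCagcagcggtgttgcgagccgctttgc
Mrpl43, chr19:45006393-45006692, minus strand: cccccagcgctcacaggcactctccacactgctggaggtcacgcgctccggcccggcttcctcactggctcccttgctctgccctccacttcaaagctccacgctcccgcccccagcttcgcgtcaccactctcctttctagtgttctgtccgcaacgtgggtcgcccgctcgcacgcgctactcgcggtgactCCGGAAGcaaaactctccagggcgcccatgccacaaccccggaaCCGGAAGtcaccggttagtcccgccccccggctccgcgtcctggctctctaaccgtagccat
Mrpl46, chr7:78783040-78783339, minus strand: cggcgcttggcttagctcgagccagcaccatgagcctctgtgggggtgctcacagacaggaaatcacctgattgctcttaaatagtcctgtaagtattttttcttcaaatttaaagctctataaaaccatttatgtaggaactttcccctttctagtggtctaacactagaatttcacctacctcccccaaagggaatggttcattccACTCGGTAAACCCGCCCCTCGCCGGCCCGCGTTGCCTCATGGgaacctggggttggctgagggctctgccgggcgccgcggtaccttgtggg
In the Mrpl17 window the NRF1 match began 49 bases before the start and the ETS match 237 bases before it. The Mrpl43 window held ETS matches 56 and 12 bases before the start, and the YY1 match of Mrpl49 began 16 bases after the start.

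By single motif, ETS letters were found for 26 of the 67 genes (38.8%), NRF1 letters for 12 (17.9%) and YY1 letters for 12 (17.9%). The shares over all genes with a window were 9.93%, 5.19% and 3.19%, and over detected genes 21.4%, 12.3% and 5.71%. Of 55 cytosolic ribosomal protein genes, 22 held the ETS letters (40.0%), 5 the NRF1 letters (9.09%) and 6 the YY1 letters (10.9%). Of 64 respiratory chain and ATP synthase genes, 16 held ETS letters, 14 NRF1 letters (21.9%) and 10 YY1 letters (15.6%). For the other 5 motifs the shares of members, of all genes and of detected genes were 7.46%, 15.7% and 8.92% for TATAAA and 7.46%, 8.09% and 12.3% for CACGTG. They were 38.8%, 41.1% and 43.5% for CCAAT, 50.7%, 38.2% and 70.5% for GGGCGG, and 1.49%, 0.525% and 1.26% for the ZBTB33-type motif. Among 41 large subunit genes 15 held ETS letters, 9 NRF1 letters and 6 YY1 letters, and among 26 small subunit genes the counts were 11, 3 and 6, with no test of the differences. These are matches of letters, not sites shown to be bound.

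Over all probes the median intensity was 197.6 for CON and 191.2 for Med1cKO. Detection required a detection p below 0.01, a comparison with that array's negative control beads. Intensities are printed as deposited, while ratios and folds were computed after background correction and normalization and can therefore differ from the quotient of the intensities. All 6 basal keratinocyte markers were detected on both arrays (summed intensity 133000 and 119000), among them Krt14 (37040 and 38430) and Itga6, the sorting marker (1056 and 939). Cd34, against which the cells were sorted, was also detected on both, at 320.7 and 279.3. The Med1 probe read 793.6 in CON and 452.2 in Med1cKO, a log2 ratio of -0.997 after background correction and 1.67-fold lower without it. The sources used here do not say which exons Cre removes, so the probe cannot check the deletion. Of 6 fibroblast markers none was detected in CON and 4 in Med1cKO (summed intensity 970 and 3650), and of 4 T cell markers 2 and 3 (1090 and 1890). Of 3 Langerhans and myeloid markers 2 and 3 were detected (1370 and 2130), of 4 melanocyte markers 0 and 1 (659 and 774), of 4 adipocyte markers 0 and 1 (695 and 1270), and of 2 red blood cell markers 1 and 1 (643 and 2400). Endothelial and skeletal muscle markers, 4 each, were detected in neither pool, and neither was Ptprc, the pan-leukocyte marker. The part of other cell types in the values below was not tested.

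Transcripts of 70 of the 76 genes were detected, 69 of them on both arrays, and they differed little between the pools. Across the 70 genes the median log2 ratio, Med1cKO minus CON after background correction and quantile normalization, was 0.09, with the 25th and 75th percentiles at -0.09 and 0.22. Over all 7955 detected genes the median was -0.04 and these percentiles were -0.30 and 0.24. Member intensities ran from 218.5 to 7569 in CON (median 1830) and from 239.4 to 7126 in Med1cKO (median 1751). No member differed 2-fold, where 1.81% of all detected genes were at least 2-fold lower and 3.95% at least 2-fold higher. At least 1.5-fold differences were found for 3 members, 2 lower (Mrpl35 and Mrpl49) and 1 higher (Mrpl11), while 8.28% of all detected genes were at least 1.5-fold lower and 9.25% at least 1.5-fold higher. All 3 lay near the threshold, and without background correction or with the authors' normalized values none passed it, while the share of all detected genes past 1.5-fold either way went from 17.5% to 8.66% and 8.91%. Of the 70 genes, 48 (68.6%) lay within 1.2-fold of no difference, against 48.0% of all detected genes. In pooled RNA, fewer cells of a type and less RNA per cell cannot be told apart.

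**Figure D1:**
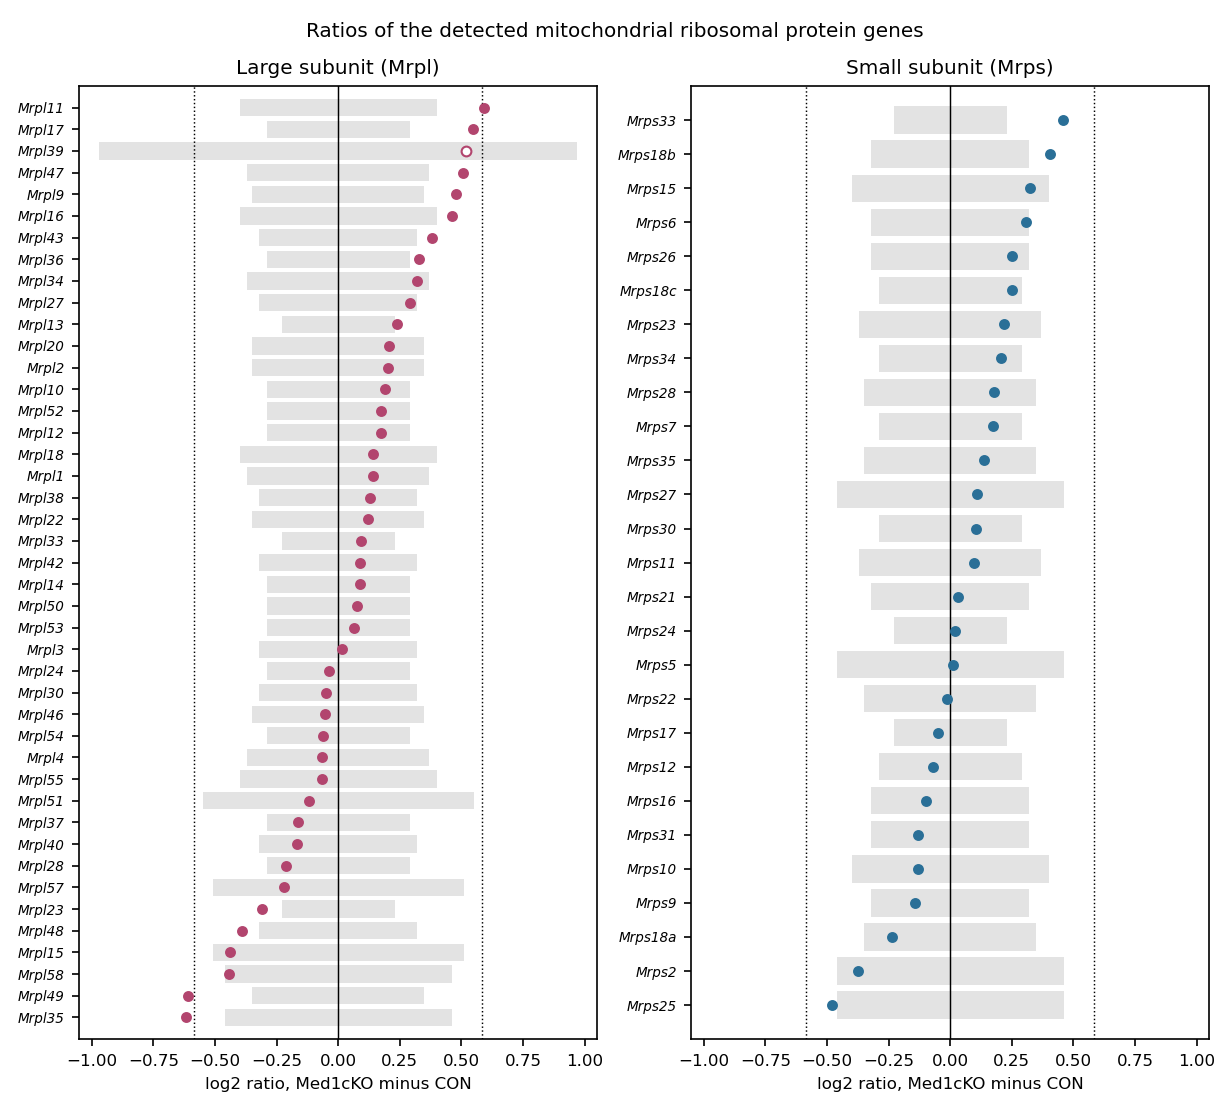
Log2 ratios (Med1cKO minus CON) of the 43 large subunit and 27 small subunit genes that were detected, ordered by ratio. The grey bar is the robust SD of ratios among genes of similar level, dotted lines mark 1.5-fold, and the open point (Mrpl39) was detected on the Med1cKO array only. Mrpl35 and Mrpl49 lie past the lower line, Mrpl11 past the upper one, and all small subunit genes lie between the lines.

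Ratios of dim genes scatter more than those of bright ones, and mitoribosome genes were mostly bright: 41 of the 70 lay in the highest tercile of level. In that tercile none of the 41 differed 1.5-fold, against 9.5% of all genes there. In the middle tercile 2 of 22 did (Mrpl49 and Mrpl11), against 18.2%, and in the lowest tercile 1 of 7 (Mrpl35), against 24.9%. From the highest to the lowest tercile, 28, 14 and 1 of these members were above 0, where 45.1%, 43.3% and 48.2% of all genes were. The median log2 ratio of the 7 members in the lowest tercile was -0.38. Ratios were also divided by a robust SD (from the median absolute deviation) over genes of like level, which measures how genes differ from each other and is no replicate error. The member farthest out was Mrps33, at 1.96 times that SD. No member passed 2 times, where 9.39% of all detected genes did, and 15 of 70 passed 1 time, where 33.6% of all detected genes did.

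**Figure D2:**
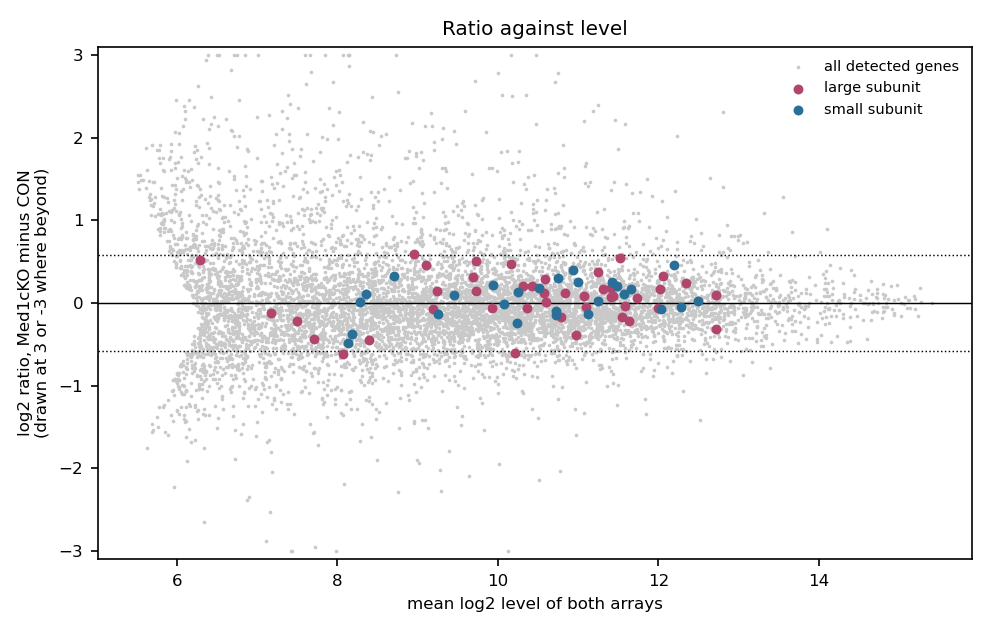
Log2 ratio against the mean log2 level of both arrays for 7955 detected genes (grey) and for the detected mitoribosome genes of the large (red) and small (blue) subunit. Dotted lines mark 1.5-fold. Of the 70 members, 48 lie within 1.2-fold of the zero line. From the highest to the lowest tercile of level, 28 of 41, 14 of 22 and 1 of 7 members lie above that line. None of the 41 in the highest tercile passes 1.5-fold.

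In the large subunit, 4 genes whose bacterial relatives lie around the catalytic centre were picked for that role after their values were seen. Mrpl16, whose bacterial relative lies near the peptidyl transferase centre, read 632.5 in CON and 776.8 in Med1cKO, 1.38-fold higher. Mrpl27, of a family that reaches toward the same centre in bacteria, was 1.23-fold higher (1583 and 1798). Mrpl2 had a log2 ratio of 0.20 and Mrpl3 of 0.01. Another 4 genes, around the exit tunnel through which the new chain leaves, were also picked after their values were seen. They are not the full set of genes there, and their values went both ways. Mrpl23 was 1.24-fold lower, with 7569 in CON and 6183 in Med1cKO, while Mrpl4, Mrpl24 and Mrpl22 had log2 ratios of -0.07, -0.04 and 0.12.

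The stalk and its base recruit translation factors to the large subunit. Mrpl11, at the stalk base, had the highest ratio of all members, reading 565.9 in CON and 741.1 in Med1cKO, 1.51-fold higher, or a log2 ratio of 0.59 (0.45 without background correction). Mrpl12, a stalk protein that also binds the mitochondrial RNA polymerase, was near level at 2608 and 2788 (log2 ratio 0.17). Mrpl10, which anchors the stalk, had 0.19 by its brightest probe and 0.12 by the other. All 3 genes were above 0, as were 45.6% of all detected genes. Only Mrpl11 reached 1.5-fold, which it did not without background correction, and 9.25% of all detected genes were at least 1.5-fold higher.

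Other large subunit proteins with bacterial relatives went both ways. Mrpl17 read 2659 in CON and 3657 in Med1cKO, 1.46-fold higher, and at 1.88 times the robust SD it was the large subunit gene farthest from its level group. Mrpl9 was 1.39-fold higher (1149 and 1459). Mrpl35 had the lowest ratio of all members, with 494.1 in CON and 360.7 in Med1cKO, 1.53-fold lower (log2 ratio -0.62, or -0.40 without background correction). Mrpl15 was 1.36-fold lower (402.4 and 325.2). Both were dim, and the robust SD of genes at their level was 0.46 and 0.51. Over the 25 detected large subunit genes with a number used for bacterial proteins (up to Mrpl36), the median log2 ratio was 0.14. Of these genes 18 (72.0%) were above 0, where 45.6% of all detected genes were.

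Among the 18 detected large subunit genes with higher numbers, most of them specific to mitochondria, the median was -0.06. Of these genes 8 (44.4%) were above 0, near the 45.6% of all detected genes. Mrpl49 read 1660 in CON and 1084 in Med1cKO, 1.52-fold lower by its brightest probe (log2 ratio -0.61, or -0.54 without background correction). Mrpl48 was 1.31-fold lower (2513 and 1856), and Mrpl58, a peptidyl-tRNA hydrolase that frees stalled ribosomes, 1.36-fold lower (557.2 and 430.1). On the other side, Mrpl47 was 1.42-fold higher (879.9 and 1128) and Mrpl43 had a log2 ratio of 0.38 (2339 and 2856). Mrpl47 belongs to a bacterial family in spite of its number. Mrpl39 was detected in Med1cKO only, at 239.4 against 218.5 in CON, at least 1.10-fold higher on the background-corrected scale.

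None of the 27 detected small subunit genes differed 1.5-fold, where 17.5% of all detected genes and 9.5% of those in the highest tercile of level did. Mrps33, a protein without a bacterial relative, had the highest ratio, with 4214 in CON and 5634 in Med1cKO, 1.37-fold higher, and its other probe was 1.19-fold higher. Mrps18b, of a family of related genes, was 1.32-fold higher (1906 and 2335) and its relative Mrps18c 1.19-fold higher (2731 and 3072). Another relative, Mrps18a, went the other way and was 1.18-fold lower (1492 and 1232). Mrps18a and Mrps30 are named for the small subunit but sit in the large one in mammalian mitoribosome structures. Mrps30 was near level at 3147 and 3242 (log2 ratio 0.10).

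The lowest small subunit ratio was that of Mrps25, 1.39-fold lower with 492.3 in CON and 381.0 in Med1cKO. Mrps2, of a family also found in the bacterial small subunit, had a log2 ratio of -0.38 (492.5 and 397.2). Mrps12, of the decoding centre family, had a log2 ratio of -0.07. Mrps16, Mrps22 and Mrps34, which are among the genes mutated in human mitochondrial translation disorders, had -0.10, -0.01 and 0.21. They were picked after their values were seen and are not the full set of such genes. Mrps24, counted by its number as specific to mitochondria although it belongs to a bacterial family, had 0.02. The 15 detected genes with bacterial-type numbers (up to Mrps21) had a median of 0.01 with 8 above 0, and the 12 with higher numbers 0.12 with 9 above 0. The former median lay between -0.05 and 0.05 over the alternative settings.

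The subunits compared as wholes were alike. The median log2 ratio was 0.09 over 43 large subunit genes and 0.10 over 27 small subunit genes, with 26 (60.5%) and 17 (63.0%) above 0, where 45.6% of all detected genes were above 0 (51.2% with cyclic loess, against 62.9% of all 70 members). With the mean of all detected probes the small subunit median was 0.02, and the large subunit median was 0.09. Ratios ran from -0.62 to 0.59 in the large subunit and from -0.48 to 0.46 in the small one, and their SD between genes was 0.30 and 0.23. With Mrps18a and Mrps30 counted in the large subunit, the medians remained 0.09 and 0.10. With 1 array per pool the difference between the subunits has no test.

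The 6 genes not detected on either array were Mrpl19, Mrpl21, Mrpl32, Mrpl45, Mrps14 and Mrps36. Their brightest probes read 139.7 to 175.5 in CON and 147.9 to 175.7 in Med1cKO, not above the negative control beads at the threshold used, and no ratio is given. Mrpl45 helps to hold the ribosome at the inner membrane, and Mrps36 is now known as a subunit of the oxoglutarate dehydrogenase complex. A probe that is not detected can also be one that binds its transcript poorly.

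Several probes per gene gave a check within the arrays. Of the 19 genes with at least 2 probes detected on both arrays, 13 had the same sign by their brightest and second probe, and in 7 some probe pointed the other way. The ratios of those 2 probes had Pearson's r = 0.57 across the 19 genes, which share both arrays. The median absolute difference between the probes was 0.17, as large as the median absolute ratio of the 70 detected members (0.17). Mrpl47, Mrps18b and Mrpl43, all above CON, had second probes at 0.43, 0.33 and 0.31. All 3 detected probes of Mrpl48 and of Mrps31 were below 0.

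For Mrpl49 the 4 probes gave log2 ratios of -0.61, -0.48, -0.15 and 0.30. The last 3 were dim, at 308.4, 249.0 and 250.6 in CON and 256.3, 231.6 and 264.7 in Med1cKO, against 1660 and 1084 for the first. With the mean of its probes the gene had -0.23 and was no longer 1.5-fold lower. For Mrps25 the probes gave -0.48, 0.18 and -0.44, so that 2 of 3 were lower. Mrpl13 had 0.24 by its brightest probe (4996 and 5764) and 0.80 by a dim one (339.6 and 461.4). Mrpl35, Mrpl11 and Mrpl17 had only 1 probe each.

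**Figure D3:**
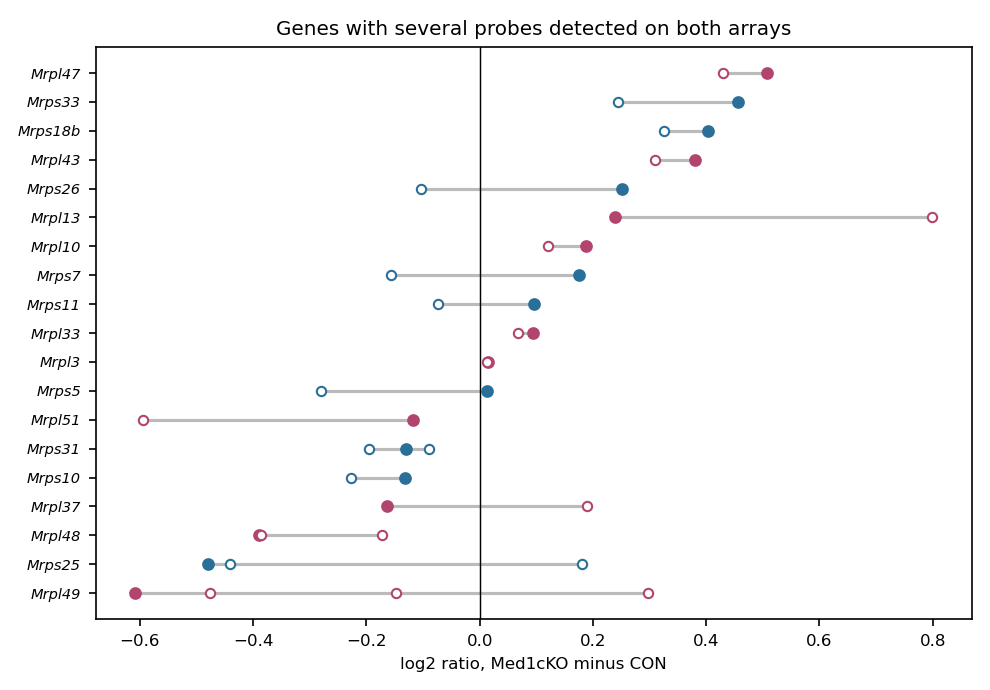
Log2 ratios (Med1cKO minus CON) of all probes detected on both arrays for the 19 genes with at least 2 such probes, large subunit in red and small subunit in blue. Filled points are the brightest probe of a gene and open points its other probes. Probes of Mrpl49 spread from -0.61 to 0.30, while those of Mrpl3, Mrpl33 and Mrpl47 lie close together.

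A further 3 ribosomal proteins that carry no Mrp symbol were detected, and all were near level. Dap3, a GTP-binding protein of the small subunit, was 1.12-fold lower (5690 and 5008), the pentatricopeptide repeat protein Ptcd3 1.10-fold lower (645.0 and 573.5) and Chchd1 1.03-fold lower (7956 and 7838).

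Genes that build and serve the mitoribosome were compared by list. Of 15 detected genes for assembly and rRNA modification, 13 were below 0, where 54.3% of all detected genes were, and the median log2 ratio was -0.16. None was 1.5-fold lower, where 8.28% of all detected genes were. With a detection p below 0.05, or with the mean of all detected probes, 1 gene of the list was. Tfb1m, which methylates the small subunit rRNA, was the 1 gene past 1.5-fold, 1.68-fold higher but dim (252.1 and 310.2) and 1.27-fold without background correction. Mrm1, an rRNA methyltransferase, was 1.34-fold lower (1443 and 1060), Mtg1, a GTPase of large subunit assembly, 1.31-fold lower (305.7 and 261.4), and Mrm2 passed detection only in CON (257.8 and 208.3), lower by at least 1.41-fold on the background-corrected scale and by 1.2-fold without correction. Such bounds hold on the background-corrected scale only. The list median lay between -0.17 and -0.13 over the alternative settings.

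None of 11 detected translation factors differed 1.5-fold, where 17.5% of all detected genes did, and the median of the list was 0.09. The release factor gene Mtrf1l was 1.47-fold lower (704.7 and 506.0) and Gfm2, which splits the ribosome after termination, 1.23-fold lower, while the recycling factor Mrrf had a log2 ratio of 0.26 (440.2 and 475.4). Mtfmt, which formylates the initiator tRNA, was detected in Med1cKO only (230.7 and 247.1), at least 1.19-fold higher on the background-corrected scale and 1.11-fold without correction. Of 10 detected mitochondrial tRNA synthetases 8 were below 0 (median -0.21), where 54.3% of all detected genes were. Of the 8 detected on both arrays, 6 were below 0 and 2 above (median -0.14). Mars2 was 1.64-fold higher (319.3 and 411.2, or 1.33-fold without background correction) and Ears2 1.28-fold lower (1090 and 846.5). Pars2 and Aars2 were dim and seen in CON alone (270.3 and 214.1, 242.2 and 203.4), Pars2 lower by at least 1.58-fold on the background-corrected scale and by 1.22-fold without correction.

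None of the 9 genes for expression and upkeep of mitochondrial DNA differed 1.5-fold either, where 17.5% of all detected genes did. Of the 9, 5 were below 0 (55.6%, against 54.3% of all detected genes) and 4 above, up to a log2 ratio of 0.28. The 4 with the largest differences were all lower: the helicase gene Twnk 1.36-fold (336.9 and 279.4), the RNA polymerase gene Polrmt 1.32-fold (3361 and 2481), the DNA polymerase gene Polg 1.31-fold (579.5 and 457.2) and Mterf1a, of the transcription terminator family, by a log2 ratio of -0.38 (1048 and 801.1). Without background correction these 4 were 1.17-, 1.3-, 1.21- and 1.25-fold lower, in that order. The median of the 9 genes was -0.12 and lay between -0.34 and -0.11 over the alternative settings. Among 6 detected regulators of nuclear genes for mitochondria, Myc, a transcription factor of growth, was 2.41-fold higher (272.5 and 426.1), or 1.62-fold without background correction. Gabpb1, the partner chain of the ETS factor GABP, was 1.49-fold higher (324.6 and 394.3), or 1.26-fold without background correction. The coactivator Ppargc1b was 1.16-fold higher and Nrf1 1.15-fold lower (1164 and 984.9).

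The products of mitochondrial translation work in the respiratory chain, and its nuclear genes resembled the mitoribosome genes in their median. Over 70 detected respiratory chain and ATP synthase genes it was 0.10, with 54 (77.1%) above 0, where 45.6% of all detected genes were. At least 1.5-fold, 2 were higher and 1 lower, where 9.25% and 8.28% of all detected genes were. Cox7b was 2.29-fold higher (297.9 and 466.8; 1.63-fold without background correction), Ndufb9 1.58-fold higher (under 1.5-fold without it) and the brighter Ndufa4 1.43-fold higher (8173 and 11680), while the dim Cox6b2 was 1.72-fold lower (1.24-fold without background correction). The cytosolic ribosomal protein genes centred on 0, with a median of -0.005 over 57 detected genes, 1 at least 1.5-fold higher and 2 lower (0 and 1 without background correction). These were Rpl22l1, with a log2 ratio of 0.59, its relative Rpl22, 1.63-fold lower (6091 and 3718), and Rpl21, 1.51-fold lower, and Rpsa, above the detection threshold in CON alone, was at least 1.23-fold lower (244.1 and 189.3). Processed pseudogenes are common in this family, so these probes may also bind other transcripts. No test of these differences between lists is possible with 1 array per pool.

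**Figure D4:**
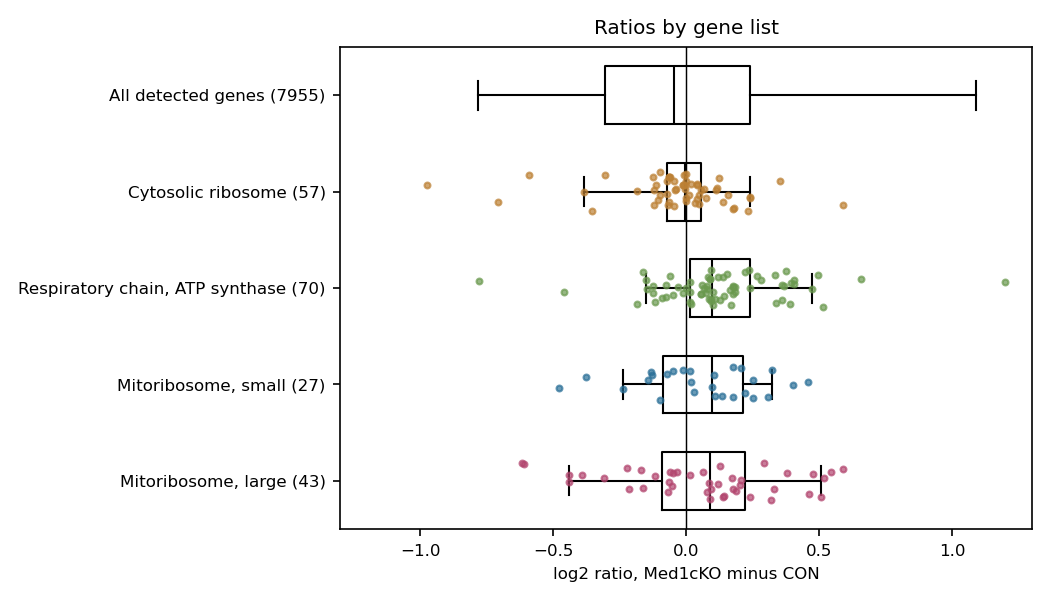
Log2 ratios (Med1cKO minus CON) of detected genes by list, with points for genes, boxes for the median and the 25th to 75th percentile, and whiskers from the 5th to the 95th percentile of genes; numbers in brackets count genes. The medians of both mitoribosome subunits and of the respiratory chain lie slightly right of 0. The boxes of both subunits cross 0 (-0.09 to 0.22 and -0.09 to 0.21), while that of the respiratory chain lies right of it (0.01 to 0.24). The box of all 7955 detected genes is wider than those of the lists.

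Among the 67 mitoribosome genes with a promoter window, 23 (34.3%) began next to a gene on the opposite strand that reads away from them, with at most 500 bases between the annotated starts. The same rule held for 10.9% of all genes with a window and 18.1% of detected genes. For 12 pairs both genes were detected on both arrays. The 2 ratios had the same sign in 4 pairs and opposite signs in 8. Some ratios were near 0, such as -0.012 for Tcp1 and 0.013 for Mrps5. No such count over pairs of other genes is given, so the signs are not read as a result about these pairs. Only Mrpl43 and Twnk, whose starts are 116 bases apart, differed from each other by 1.5-fold or more (log2 ratios 0.38 and -0.44). Twnk was dim, and without background correction it was 1.17-fold lower, with Mrpl43 at a log2 ratio of 0.36. Mrpl49 lies 192 bases from Fau, which encodes a cytosolic ribosomal protein, and Fau had -0.16 (24340 and 21330) against -0.61 for Mrpl49. Mrpl47 and the complex I gene Ndufb5, 308 bases apart, were both higher (0.51 and 0.39). Mrpl46 and Mrps11, whose shared stretch is printed in capitals above, had -0.05 and 0.10.

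**Figure D5:**
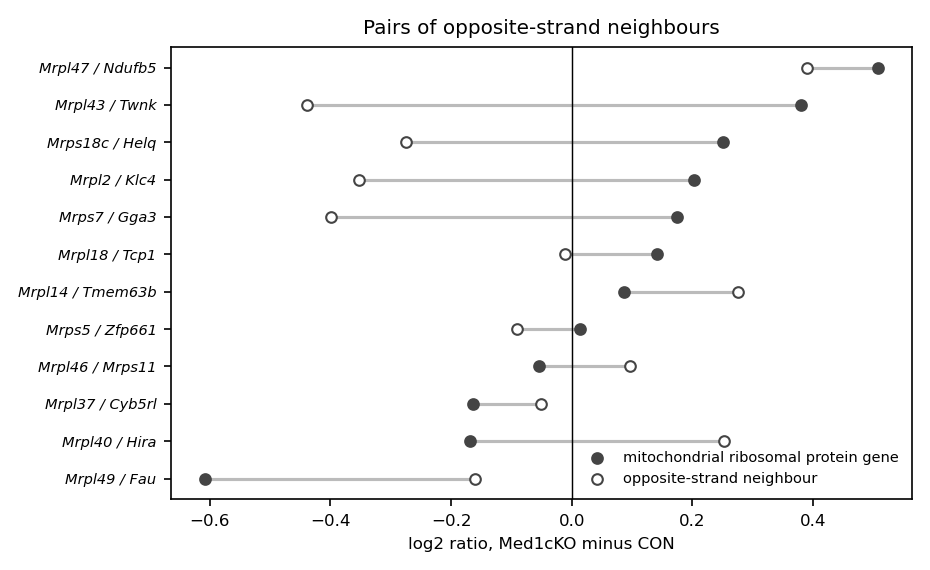
Log2 ratios (Med1cKO minus CON) of 12 pairs of opposite-strand neighbours, mitochondrial ribosomal protein gene filled and neighbour open (for Mrpl46 and Mrps11, both members, Mrps11 is open). Mrpl47 and Ndufb5 lie together on the right, while Mrpl43 and Twnk lie on opposite sides of 0.

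Promoter letters and ratios were set side by side in the same genes. Detected members with ETS letters (25) had a median log2 ratio of 0.11 and those without (37) 0.08. For NRF1 letters the medians were 0.13 with (10) and 0.08 without (52), and for YY1 letters 0.02 with (11) and 0.09 without (51). No test applies to these differences.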

How the data were processed

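Probe intensity values of 2 arrays were used as deposited: per the file headers they are not normalized, and the values are linear. Each has a deposited detection p-value from negative control beads. The submitters' processing notes name GenomeStudio 2011.1. The authors' normalized intensity values served as an alternative. Their medians were 198.4 (CON) and 198.7 (Med1cKO), they are linear and uncentred, they run the same way as their own array (rank correlation 1), and the sources used here do not give their method.

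Intensities were corrected, quantile-normalized and log2-transformed with neqc of limma 3.58.1 (R 4.3.3; offset 16; background from the detection p, mean 168 and SD 21.85 in CON, 163.01 and 17.03 in Med1cKO), and tested on simulated data. Later steps used Python 3.11.15, pandas 2.3.3 and scipy 1.17.1. Of 25697 probes, 23978 had 1 gene symbol and 1719 none. All 76 member symbols matched RefSeq by Entrez ID. A gene was represented by its brightest probe. Where 1 array detected a gene, the other array's value was set to at least its lowest detected level (log2 6.41 in CON, 6.20 in Med1cKO) and the fold is a lower bound. Robust SDs were taken in 10 level bins. The number of arrays limits the precision. Alternatives changed the background correction, offset, normalization, detection filter, probe choice and subunit assignment. Full values are given for the 8 lowest and 8 highest members, Mrps18a, Mrps30 and Mrpl12, and up to 4 genes of each other list. Members, lists and motifs were chosen with earlier results of these data known, and genes named beyond this rule after their values were seen.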

Additional observations from a re-analysis of the deposited data

How the results depend on the processing

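No member differed 2-fold under any of the 9 alternatives. The share of members below 0 was 38.6%, and ranged from 32.9% (common median) to 39.1% (genes detected on both arrays only). The median of the members ranged from 0.08 to 0.12, that of the large subunit from 0.08 to 0.12, that of the small subunit from 0.02 (mean of all detected probes) to 0.13, and that of all genes from -0.06 to 0.01. The large minus small difference was -0.006, and 0.068 with the mean of all detected probes, so its sign is not settled. The counts past 1.5-fold rest on values near the threshold and changed. Without background correction, and with the authors' normalized values, 0 members were at least 1.5-fold lower and 0 higher (0 of the large subunit lower), and 8.66% and 8.91% of all genes passed 1.5-fold. With a neqc offset of 50, 1 was lower (a large subunit gene) and 0 higher, with 13.9% of all genes past it. With a common median in place of quantile normalization 1 was lower (of the large subunit) and 2 higher, with cyclic loess 0 were lower (0 of the large subunit), and with the mean of all detected probes 1 was lower (of the large subunit). At most 4 of 70 members changed sign under any setting that changes values. Of 420 values of single detected members under alternatives, 418 moved by less than the robust SD of similar genes. The values that moved more were Mrpl13 (0.52) and Mrpl49 (-0.23) with the mean of their probes. This yardstick is wide, since only 15 of the 70 member ratios themselves exceeded it. Genes with 1 detected probe cannot move with the mean of probes. The medians of the cytosolic ribosomal list (-0.03 to 0.08) and of the small subunit genes with bacterial-type numbers (-0.05 to 0.05) changed sign between settings. No paired analysis was possible because each group has 1 array.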
